A study of Mus musculus with 12 samples.

Results

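Replication-dependent histone genes make the core histones H2A, H2B, H3 and H4 and the linker histone H1 that package newly copied DNA. They were taken as every row of the deposited expression table whose gene symbol, or any symbol of a row that joins several genes, starts with Hist1h, Hist2h, Hist3h or Hist4h. That gave 69 of 37750 rows, and 2 of the 69 are joined rows (Hist3h2a with Trim17, and Hist2h2aa1 with Hist2h3c1), so the 69 rows name 70 histone genes. The rows were 6 of H1, 19 of H2A, 19 of H2B, 11 of H3 and 13 of H4, plus 1 row that joins an H2A and an H3 gene.

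The RNA came from Ad/NICD mice of strain 129 x C57BL/6, which carry the active intracellular domain of the Notch1 receptor in adipocytes and develop tumours of the fat lineage. LPS stands for liposarcoma, with 8 libraries from animals of 9, 10, 11 or 12 months (LPS 1 to LPS 8), and WAT for white adipose tissue, with 4 libraries from animals of 3 weeks (WAT 1 to WAT 4). Both groups carry the transgene, so the comparison is of tumour with young fat tissue of the same transgenic line. The effect of age and that of the tissue cannot be told apart between LPS and WAT. Ribosomal RNA was depleted from total RNA before stranded libraries were made, so messages without a poly(A) tail are present. Values are FPKM, fragments scaled by transcript length and by the number of mapped fragments.

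Replication-dependent histone genes lie in clusters, usually lack introns, and are transcribed mainly in S phase, when DNA is copied. Their messages usually end not in a poly(A) tail but in a short conserved stem-loop, which the stem-loop binding protein Slbp holds while the 3′ end is cut. When DNA synthesis stops the messages are degraded, so in a tissue their level follows, as a rule, how many cells are copying DNA. Some of the genes also make longer, polyadenylated transcripts in cells that have stopped dividing.

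The stem-loop is the sequence the family is known for, so its forms are shown first. A search for the histone stem-loop consensus past the coding end of GENCODE M21 transcripts (build GRCm38) found it in 46 of the 70 histone genes. Searched over whole transcripts, coding region included, 55 of all 55341 annotated genes (0.0994%) held it. In the 46 histone genes it began 21 to 58 bases after the stop codon, with a median of 31. The 46 genes held 8 forms of it, each printed below once as DNA, from 5′ to 3′ on the strand of the gene, with the 16 bases of the stem-loop in capitals and 5 bases on each side in lower case.
Hist1h1e (chr13:23621777-23621802, minus strand): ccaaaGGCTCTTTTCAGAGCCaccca
Hist1h1t (chr13:23696520-23696545, plus strand): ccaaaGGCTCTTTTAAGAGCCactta
Hist2h2ac (chr3:96220413-96220438, minus strand): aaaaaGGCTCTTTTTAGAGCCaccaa
Hist1h3g (chr13:23535884-23535909, plus strand): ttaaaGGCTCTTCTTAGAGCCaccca
Hist1h4d (chr13:23581945-23581970, plus strand): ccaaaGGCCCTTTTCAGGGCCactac
Hist1h4i (chr13:22040961-22040986, minus strand): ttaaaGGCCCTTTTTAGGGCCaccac
Hist1h4a (chr13:23760795-23760820, minus strand): ccaaaGGCCCTTCTCAGGGCCgccca
Hist1h4j (chr13:21735432-21735457, plus strand): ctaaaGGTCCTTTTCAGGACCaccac

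The form shown for Hist1h1e was the most frequent, in 26 genes of types H1, H2A, H2B and H3. The 34 genes of those types that had a stem-loop all began it with GGCTC, and none of the 12 H4 genes with one did: theirs began with GGCCC or GGTCC, with the matching change on the other arm. Of the 24 genes in which no stem-loop was found, 15 had an annotated transcript that stops under 30 bases past the coding end, before the place where the loop usually lies. A further 3 have no annotated coding region, and 6 reach farther without it: Hist1h1a, Hist1h2bc, Hist1h2bq, Hist1h2br, Hist2h2be and Hist2h3b. Of these, Hist1h1a ends 48 and Hist2h3b 37 bases past the coding end, so a loop that starts late would be cut off in both. A missing match says only that these letters are not in the annotated transcript.

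Promoters of the family are shown for an H1, an H2B and an H4 gene because the types differ in the short motifs they carry. The sequences are those of RefSeq on GRCm38.p6, 250 bases before to 50 bases after the gene's start, and 61 of the 70 genes had one. They cover chr13:23622509-23622808 on the minus strand (Hist1h1e), chr13:23571150-23571449 on the plus strand (Hist1h2bg) and chr13:23581318-23581617 on the plus strand (Hist1h4d). Capitals mark, on either strand, the CCAAT box (CCAAT), the TATA box (TATAAA), the octamer bound by Oct1 (ATTTGCAT) and the H1 box (AAACACA).
Hist1h1e promoter: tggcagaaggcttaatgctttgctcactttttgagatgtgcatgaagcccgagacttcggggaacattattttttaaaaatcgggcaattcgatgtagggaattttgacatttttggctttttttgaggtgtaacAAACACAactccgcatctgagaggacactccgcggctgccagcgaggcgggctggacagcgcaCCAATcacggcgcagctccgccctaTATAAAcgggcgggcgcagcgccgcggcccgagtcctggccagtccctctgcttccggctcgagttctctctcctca
Hist1h2bg promoter: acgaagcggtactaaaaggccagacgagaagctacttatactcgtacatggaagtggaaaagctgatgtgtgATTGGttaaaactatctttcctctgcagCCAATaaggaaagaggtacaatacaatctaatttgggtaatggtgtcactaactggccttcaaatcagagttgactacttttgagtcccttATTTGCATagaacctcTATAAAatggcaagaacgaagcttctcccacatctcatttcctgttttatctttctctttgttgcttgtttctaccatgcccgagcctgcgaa
Hist1h4d promoter: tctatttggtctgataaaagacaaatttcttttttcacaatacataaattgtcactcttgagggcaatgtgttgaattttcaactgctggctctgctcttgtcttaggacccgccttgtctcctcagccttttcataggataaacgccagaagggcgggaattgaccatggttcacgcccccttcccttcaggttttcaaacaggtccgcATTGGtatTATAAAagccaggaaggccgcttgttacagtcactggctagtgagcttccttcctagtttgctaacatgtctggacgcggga

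The CCAAT box, bound by NF-Y, was in all 5 H1, all 18 H2A, all 16 H2B and all 10 H3 promoters, but in 3 of 12 H4 promoters. The Hist1h4d promoter shown is among these 3, so it is not typical of H4 in this motif. Over all 32817 promoters of the same length it was in 37.4%. The octamer was in 7 H2A and 6 H2B promoters and in no H1, H3 or H4 promoter, against 1.74% of all promoters. The H1 box, which takes its name from H1 genes, was in 4 of 5 H1 promoters and in 4 others, against 7.19% of all. The TATA box was in 34 of 61, against 13.6% of all. No motif contains another, but promoters of genes that start close together on opposite strands overlap, and both strands were searched. The same octamer is thus counted in both promoters for Hist1h2aa and Hist1h2ba, Hist1h2ae and Hist1h2bg, and Hist1h2ah and Hist1h2bk. Such promoters are not separate observations for any of the motifs. As a description of the tested rows, the median log2 difference was 0.84 for the 11 tested rows with an octamer and 0.92 for the 43 without, and 0.91 for the 45 with a CCAAT box and 0.93 for the 9 without.

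In the genome, 55 of the 56 Hist1 rows lie on chromosome 13 between 21715763 and 23934851, and the remaining one, Hist1h2al, lies apart at 51202688 to 51203065 of the same chromosome. The 9 Hist2 rows lie on chromosome 3 (96196588 to 96279001), the 3 Hist3 rows on chromosome 11 (58948911 to 58978050), and Hist4h4 is the only row of its cluster, on chromosome 6 (136801553 to 136804431). GENCODE annotates 66 of the 69 rows as protein coding, Hist1h2al and Hist3h2bb-ps as processed pseudogenes and Hist1h2aj as an unprocessed pseudogene.

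Near-identical copies limit what a single row can say. Of all runs of 50 bases in a member's transcript, a median of 51.0% were found in a transcript of another gene too, with medians of 1.13% for H1, 73.2% for H2A, 49.7% for H2B, 62.0% for H3 and 39.5% for H4. Any other annotated gene counted here, so these shares include overlapping annotations beside histone copies. Hist2h2bb, for example, shared 53.6% of its runs with the predicted gene Gm42743 and none with a histone gene, and Hist3h2a shared most with Trim17. Hist2h2be, Hist1h1a, Hist1h1b and Hist1h1t shared none, while Hist2h2aa2, Hist2h3c1, Hist1h2bq and Hist1h2br shared all. Where a gene had several transcripts, only the shortest coding one was used. For Hist1h2bq and Hist1h2br it has 381 bases, while others reach 2015 and 2197 bases. The sources used here do not give how fragments that map to several copies were split, so the values of single rows are uncertain where copies share sequence. Rows also overlap: Hist2h2bb with Hist2h3b, Hist1h2bm with Hist1h2aj, Hist1h4b with 4930558J22Rik, Hist2h2ab with Bola1, and the Hist3h2a and Trim17 row with Gm12260.

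A few facts of the whole table bear on these rows. The median ratio of a library's rows to their geometric mean over all 12 was 0.814 in LPS 5 and 0.991 to 1.06 in the other 11, so LPS 5 reads low as deposited, and its histone values are nonetheless among the highest. Summed adipocyte markers (6 genes) were 1.07 to 35.6 FPKM in LPS and 4115 to 5771 FPKM in WAT, and pericyte markers (6 genes) 3354 to 7468 FPKM in LPS and 151 to 171 FPKM in WAT. The labelled fat tissue thus showed its defining genes. The 8 T and B lymphocyte markers summed to 0.989 to 19.8 FPKM in LPS and 102 to 214 FPKM in WAT, and all 8 were lower in LPS. Endothelial markers (5 genes) summed to 83.6 to 145 FPKM in LPS and 140 to 173 FPKM in WAT, with 4 of them lower in LPS and Emcn higher (54.4 FPKM in LPS and 10.8 FPKM in WAT on average). Macrophage markers (5 genes) summed to 91.5 to 341 FPKM in LPS and 110 to 191 FPKM in WAT, with 1 higher. Erythroid markers (6 genes) summed to 13.6 to 2593 FPKM in LPS and 1018 to 2376 FPKM in WAT. The highest tumour sum was that of LPS 5, and the next, that of LPS 2, was 394 FPKM. All 5 erythroid markers tested were lower in LPS, and 3 to 5 were when each library was left out. No marker of these lists was at 0 in all libraries of a group. Their part in the histone values was not tested.

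As a family, the histone genes measured more in most tumours than in fat. The 66 rows with a single name other than Hist1h2al, which is described on its own, summed to 1379 FPKM in the lowest tumour, a median of 3223 FPKM and 5289 FPKM in the highest, against 2331, 2372, 1626 and 1188 FPKM in WAT 1 to WAT 4. LPS 5, LPS 8 (4952 FPKM) and LPS 2 (4790 FPKM) were highest, LPS 7 was lowest, and LPS 1 (2290 FPKM) was also inside the WAT range, so the groups overlap. The mean was 3524 ± 1380 FPKM in LPS and 1879 ± 574 FPKM in WAT (SD, n = 8 and n = 4), a ratio of 1.88. In bulk tissue, fewer cells in S phase and less histone RNA per cell cannot be told apart.

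**Figure D1:**
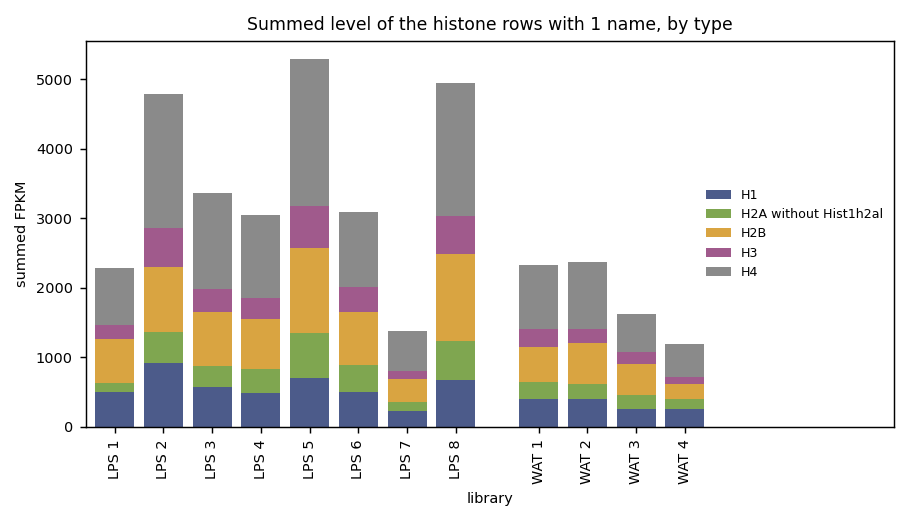
Summed FPKM of the histone rows with 1 name, without Hist1h2al, in each library (x axis, LPS left and WAT right), stacked by histone type (y axis, linear from 0). LPS 5 reached 5289 FPKM, and LPS 7, at 1379 FPKM, lay inside the WAT range of 1188 to 2372 FPKM.

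The shares of the types differed less between the groups than between libraries. H4 made up the largest share of the sum, 39.0 ± 2.36% in LPS and 38.4 ± 3.02% in WAT (SD, n = 8 and n = 4). H2B made up 24.0 ± 2.31% in LPS and 23.2 ± 3.77% in WAT, and H1 16.7 ± 2.83% in LPS and 17.7 ± 2.36% in WAT. H3 made up 10.4 ± 1.28% in LPS and 9.85 ± 1.10% in WAT, and H2A 10.0 ± 2.30% in LPS and 10.9 ± 1.73% in WAT. The smallest share of H2A, 5.50%, was in LPS 1, which also had the largest share of H1, 22.0%.

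Summed by cluster, the 55 Hist1 rows other than Hist1h2al had 3197 ± 1222 FPKM in LPS and 1687 ± 533 FPKM in WAT (SD, n = 8 and n = 4). The 8 single rows of Hist2 had 312 ± 162 FPKM in LPS and 176 ± 39.1 FPKM in WAT. The 2 single rows of Hist3, both H2B, had 3.39 ± 2.57 FPKM in LPS and 4.92 ± 2.48 FPKM in WAT. Most of the summed histone FPKM thus lay in Hist1, in tumours and in fat.

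**Figure D2:**
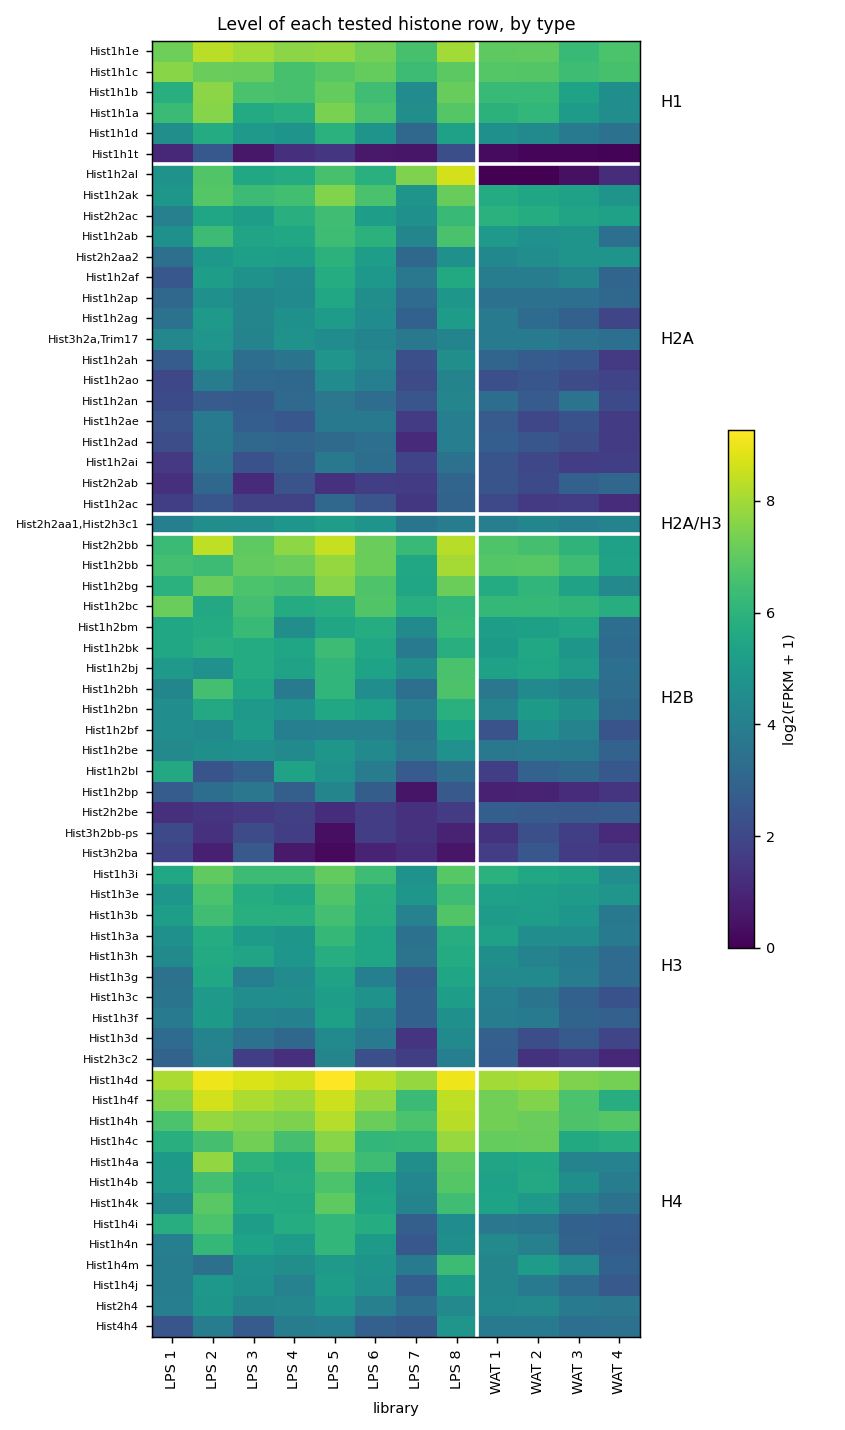
Level of the 63 tested histone rows in each library, as log2(FPKM + 1) in colour, with rows grouped by type and ordered by mean within a type, and LPS columns left of the white line. The columns of LPS 2, LPS 5 and LPS 8 are brighter through all types, those of LPS 7 and WAT 4 darker, and Hist1h2al breaks this pattern.

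The test of each row used limma on log2(FPKM + 1) over the 14821 rows that reached 1 FPKM in 4 or more libraries, with Benjamini-Hochberg adjustment at 0.05. It covered 63 of the 69 histone rows. Of these, 17 were higher in LPS (27.0%, where 18.9% of all rows tested were higher) and 1 was lower (1.59%, where 27.0% of all rows were lower). The median log2 difference was 0.88 over the 63 histone rows and -0.05 over all rows tested. With quantile normalization these medians were 1.01 and 0.10, and 54.8% of all calls in the table were higher, against 41.2% without it. A positive difference was seen in 57 of the 63, while 46.7% of all rows had one. The 45 rows that were not called had differences of -0.73 to 1.39, 40 of them above 0.

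Single rows mostly overlapped between the groups. All 8 LPS values lay above all 4 WAT values in 2 of the 63 rows (3.17%, against 11.8% of all rows tested) and below them in 1 (1.59%, against 20.9% of all rows). The 2 rows above, Hist1h2al and Hist1h1t, reached 1 FPKM in 1 and in no WAT library and passed the filter through LPS. The filter thus favoured a difference in that direction. LPS 7 was the lowest tumour in 45 of the 63 rows and LPS 1 in 10, LPS 7 lay below the WAT mean in 58, and LPS 5, LPS 8 or LPS 2 was the highest tumour in 56. Among WAT libraries, WAT 4 was lowest in 49 rows. Over the 59 histone rows whose ratio could be taken, the highest tumour was a median of 5.95 times the lowest, where the same ratio over 11109 rows of the table was 2.12.

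The number of rows called higher depended on single libraries. Without LPS 7, 39 of the 63 were higher (61.9%, against 19.6% of all rows in the same fit). Without LPS 2 there were 10 (15.9%, against 18.1%), without LPS 5 11 (17.5%, against 21.8%) and without LPS 8 10 (15.9%, against 18.3%). Without WAT 3 there were 7 (11.1%, against 15.2%) and without WAT 4 5 (7.94%, against 15.3%), all among the 17. In these 5 fits the histone share was below that of all rows. The exact permutation test called 8 higher (12.7%, against 17.0%), quantile normalization 19 (30.2%, against 28.2%) and array quality weights 28 (44.4%, against 27.2%). The excess of histone rows called higher thus depended on which libraries and which test were used. The median log2 difference stayed positive when each library was left out in turn, between 0.64 and 1.08. The 6 calls that held under all 20 alternatives were those of Hist1h2al, Hist1h4i, Hist1h2bp, Hist1h2be, the joined row of Hist3h2a and Trim17, and Hist2h2be, the only one that was lower.

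**Figure D3:**
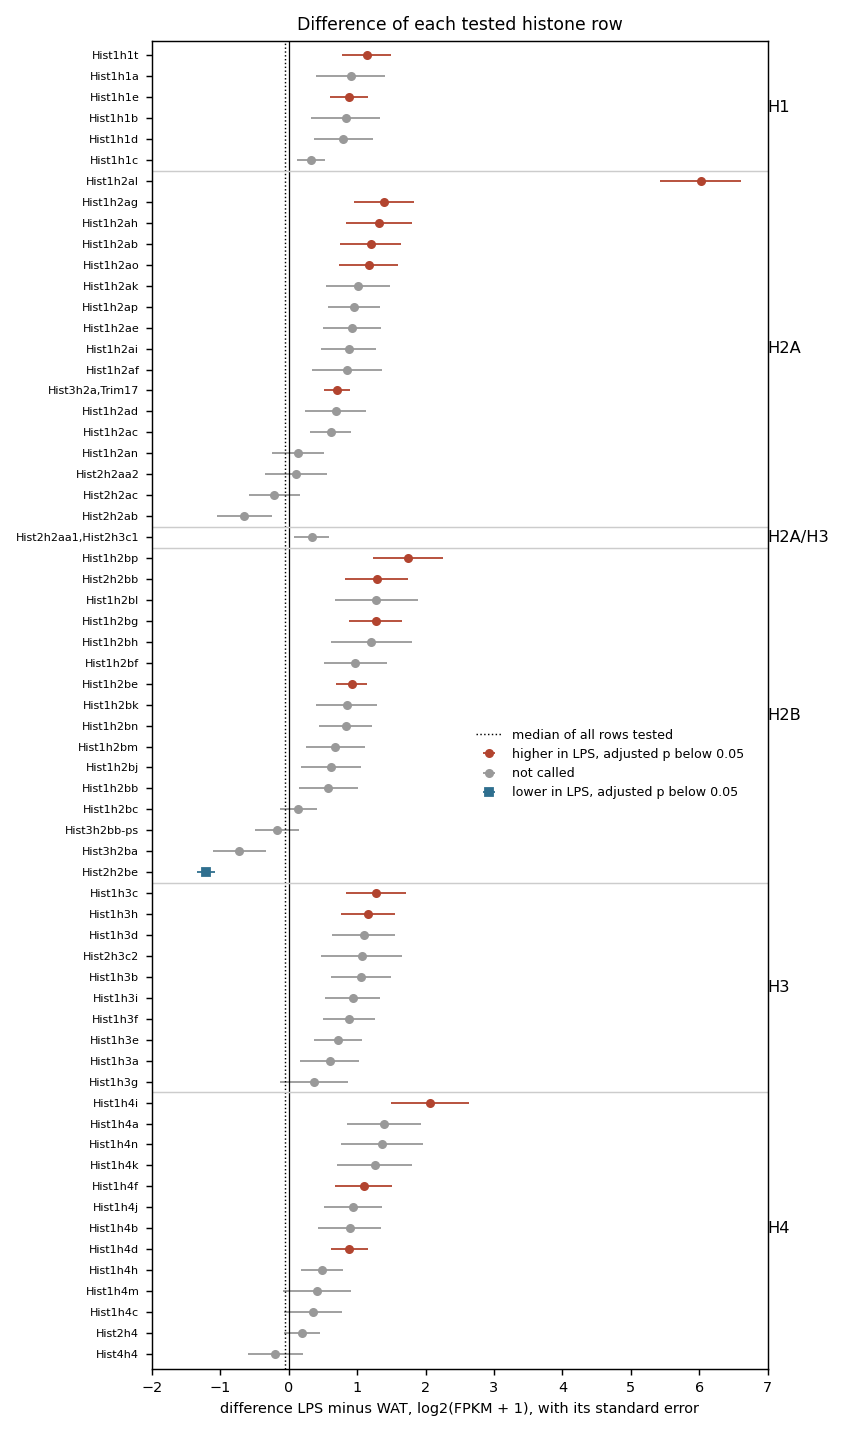
Difference LPS minus WAT on the log2(FPKM + 1) scale (x axis) with its standard error for each of the 63 tested rows, grouped by type. Red circles mark the 17 rows called higher, the blue square the 1 called lower, grey circles the 45 not called, and the dotted line the median of all rows tested, -0.05.

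Among the linker histones, which bind DNA between nucleosomes, 2 of 6 rows were higher and none was lower, with a median log2 difference of 0.85. Hist1h1e, the most abundant of them, had 94.8 FPKM in the lowest tumour, a median of 212 FPKM and 319 FPKM in the highest, against 126, 129, 78.1 and 98.9 FPKM in WAT 1 to WAT 4. LPS 7 fell inside the WAT range, and the other 7 tumours were above it. Its log2 difference was 0.88 ± 0.28 (SE; limma adjusted p = 0.0216), and the call was lost without WAT 3 or WAT 4. Hist1h1t, the testis-specific H1, was low everywhere, with 0.493 to 4.95 FPKM and a median of 1.24 FPKM in LPS, against 0.223, 0.0785, 0.129 and 0.0576 FPKM in WAT. Its groups did not overlap, and LPS 2 and LPS 8 (3.72 FPKM) were highest. It passed the filter through LPS alone, where 5 libraries reached 1 FPKM and no WAT library did, so its difference and lack of overlap follow in part from the filter. The log2 difference was 1.14 ± 0.36 (limma adjusted p = 0.0193), a scale on which values near 1 FPKM are compressed, and the call was lost without WAT 2 or WAT 4.

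Of the 17 tested H2A rows, 6 were higher and none was lower, with a median log2 difference of 0.88. Hist1h2al showed the largest difference of the 63 tested rows. It had 25.5, 106, 46.3, 51.3, 93.8, 58.4, 178 and 409.5 FPKM in LPS 1 to LPS 8, against listed values of 0, 0, 0.341 and 1.26 FPKM in WAT 1 to WAT 4. Every tumour was far above every WAT library, and the order of the tumours was not that of the family: LPS 7, the lowest in most rows, was the second highest here. It differed on the log2 scale by 6.02 ± 0.59 (limma adjusted p = 2.72e-06), and 8.25 with a pseudocount of 0.1, so its size rests on the pseudocount. GENCODE gives it as a processed pseudogene, and 67.6% of its runs of 50 bases occur in transcripts of other genes. These are 21 genes, 17 of them histone genes. Most of the shared runs occur in the predicted gene Gm20634, which also holds every run of Hist2h2aa2 and Hist2h3c1.

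The other H2A rows called higher had a lowest tumour inside the WAT range. Hist1h2ag had 6.36, a median of 23.0 and 34.2 FPKM from the lowest to the highest tumour, against 13.1, 8.48, 6.39 and 2.88 FPKM in WAT. LPS minus WAT was, on the log2 scale, 1.39 ± 0.44 (limma adjusted p = 0.0208), lost without WAT 3 or WAT 4. Hist1h2ah (1.32 ± 0.48, limma adjusted p = 0.0384) lost its call without LPS 2, LPS 5, LPS 6, LPS 8, WAT 2, WAT 3 or WAT 4. Hist1h2ab (1.20 ± 0.45, limma adjusted p = 0.0441) and Hist1h2ao (1.17 ± 0.44, limma adjusted p = 0.0433) kept theirs without LPS 1 or LPS 7 and lost them without any other single library. All 4 encode core H2A, and 58.0% to 93.5% of their runs of 50 bases are shared, so their values may not be independent of one another. The joined row of Hist3h2a and Trim17, a ubiquitin ligase gene, had 12.2, a median of 18.0 and 27.8 FPKM in LPS, against 12.9, 12.8, 10.5 and 9.38 FPKM in WAT. Its log2 difference was 0.71 ± 0.19 (limma adjusted p = 0.00781), LPS 7 alone lay inside the WAT range, and the contributions of both genes cannot be told apart.

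**Figure D4:**
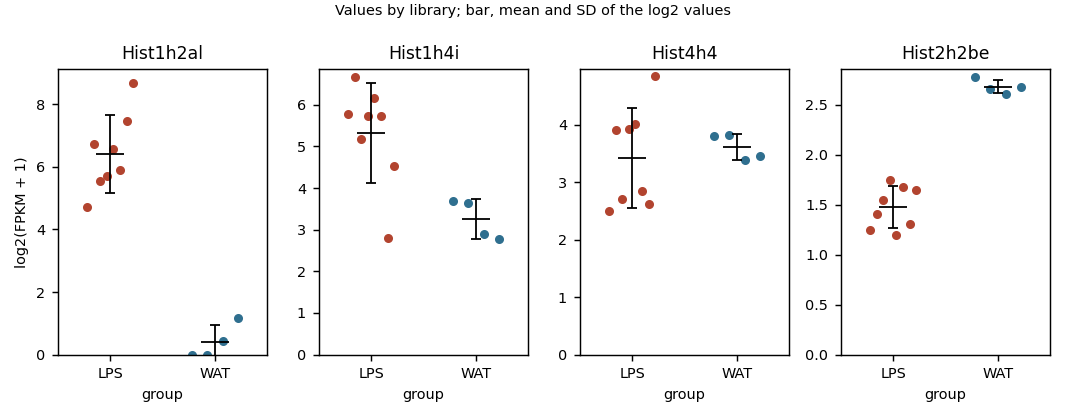
Values of Hist1h2al, Hist1h4i, Hist4h4 and Hist2h2be in each library as log2(FPKM + 1), LPS left and WAT right, 1 point per library in a panel per gene, each with its own scale from 0; the black bar is the mean with its SD. Hist1h2al and Hist2h2be show no overlap between the groups, in opposite directions, while Hist4h4 shows a wide spread among tumours around the WAT values.

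Of the 16 tested H2B rows, 4 were higher and 1 was lower, with a median log2 difference of 0.84. Hist2h2be was the only histone row called lower, while 5 other rows had negative differences that were not called. It had 1.30 FPKM in the lowest tumour, a median of 1.79 FPKM and 2.36 FPKM in the highest, against 5.84, 5.31, 5.10 and 5.41 FPKM in WAT. The groups did not overlap, and the tumours were close to one another. The log2 difference was -1.21 ± 0.14 (limma adjusted p = 1.01e-05). Its annotated transcript carries 2192 bases after the coding end, without a stem-loop match, and shares no run of 50 bases with another gene.

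Hist2h2bb, the H2B row with the highest mean over the 12 libraries, had 74.9 FPKM in the lowest tumour, a median of 173 FPKM and 353 FPKM in the highest, against 105, 91.7, 63.9 and 39.0 FPKM in WAT. LPS 7 and LPS 1 were inside the WAT range. In WAT alone Hist1h2bb had a higher mean, 88.7 FPKM, than Hist2h2bb, 75.0 FPKM. Hist2h2bb differed on the log2 scale by 1.29 ± 0.46 (limma adjusted p = 0.0352), and the call was lost without LPS 2, LPS 4, LPS 5, LPS 8, WAT 3 or WAT 4. Hist1h2bg had 43.7, a median of 101 and 194 FPKM in LPS, against 51.4, 68.0, 39.4 and 19.9 FPKM in WAT, with a log2 difference of 1.27 ± 0.39 (limma adjusted p = 0.0179), lost without WAT 4. Both make ordinary core H2B. Hist1h2bp ran from 0.455 FPKM in LPS 7 over a median of 5.79 FPKM to 17.7 FPKM in LPS 5, against 0.821, 0.886, 1.26 and 1.64 FPKM in WAT. It passed the filter through LPS, with 7 LPS and 2 WAT libraries at 1 FPKM or more. LPS 7 alone was not above all WAT values, and the log2 difference was 1.74 ± 0.51 (limma adjusted p = 0.0135). Hist1h2be had 11.7, a median of 22.3 and 29.2 FPKM in LPS, against 12.1, 13.4, 12.4 and 6.60 FPKM in WAT (log2 difference 0.92 ± 0.22, limma adjusted p = 0.00442), again with LPS 7 alone inside the WAT range.

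Of the 10 tested H3 rows, 2 were higher and none was lower, with a median log2 difference of 1.00. Hist1h3i, the most abundant, was not called: it had 25.8, a median of 82.1 and 133 FPKM in LPS, against 60.3, 46.7, 39.9 and 22.6 FPKM in WAT (log2 difference 0.93 ± 0.41, limma adjusted p = 0.0791). It was called without LPS 7 and with array quality weights; without LPS 7 its limma adjusted p was 0.00964, in a range of 0.00964 to 0.256 over all alternatives. Hist1h3c had 6.30, a median of 24.8 and 35.6 FPKM in LPS, against 14.9, 10.9, 6.34 and 4.01 FPKM in WAT. Its log2 difference was 1.28 ± 0.44 (limma adjusted p = 0.0311), lost without LPS 2, LPS 5, LPS 8, WAT 3 or WAT 4. Hist1h3h had 10.9, a median of 42.6 and 54.4 FPKM in LPS, against 23.6, 16.6, 13.5 and 8.37 FPKM in WAT, with a log2 difference of 1.16 ± 0.40 (limma adjusted p = 0.0306), lost without LPS 2, LPS 8, WAT 2, WAT 3 or WAT 4. Hist1h3h and Hist1h3i share 79.3% of their runs of 50 bases.

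Of the 13 H4 rows, 3 were higher and none was lower, with a median log2 difference of 0.89. H4 genes are known to encode the same protein from different messages. Hist1h4d, the most abundant histone row, had 223 FPKM in the lowest tumour, a median of 405 FPKM and 620.1 FPKM in the highest, against 255, 274, 179 and 159 FPKM in WAT. LPS 7 lay inside the WAT range, LPS 1 at 276 FPKM just above it, and the other 6 tumours were clearly above. LPS minus WAT was, on the log2 scale, 0.89 ± 0.27 (limma adjusted p = 0.0179), lost without WAT 3 or WAT 4.

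Hist1h4i showed the largest log2 difference of the H4 rows: 5.94 FPKM in LPS 7, a median of 52.2 FPKM and 99.9 FPKM in LPS 2, against 12.0, 11.5, 6.41 and 5.87 FPKM in WAT. The 7 tumours other than LPS 7 were above all WAT values. The log2 difference was 2.07 ± 0.57 (limma adjusted p = 0.00953). Hist1h4f had 78.3, a median of 258 and 403 FPKM in LPS, against 158, 181, 101 and 54.0 FPKM in WAT (log2 difference 1.09 ± 0.42, limma adjusted p = 0.0489), a call that held when LPS 7 or WAT 2 was left out and with no other library left out. Hist4h4 had 4.63, 14.1, 5.56, 14.2, 15.2, 6.15, 5.16 and 27.8 FPKM in LPS 1 to LPS 8, against 12.9, 13.1, 9.44 and 10.0 FPKM in WAT. The tumours lay on both sides of the WAT values, 4 below all of them and 4 above, and the log2 difference was -0.19 ± 0.41 (limma adjusted p = 0.722).

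By cluster, all 51 tested Hist1 rows had a positive difference, 15 were called higher, and the median log2 difference was 0.92. Of the 8 tested Hist2 rows, 5 had a positive difference, 1 was higher and 1 lower, and the median was 0.15. Of the 3 Hist3 rows, the joined one was higher and the other 2 had negative differences that were not called. The joined row of Hist2h2aa1 and Hist2h3c1 had 11.1, a median of 22.5 and 34.6 FPKM in LPS, against 14.5, 18.3, 15.1 and 16.6 FPKM in WAT, and was not called (log2 difference 0.33 ± 0.26, limma adjusted p = 0.310). Whether the clusters differ was not tested.

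Members also sit in head-to-head pairs that start from the same stretch of DNA. There were 15 such pairs with at most 1000 bases between the starts, 14 of them an H2A with an H2B gene, with gaps of 172 to 305 bases, and 1 an H2B with an H3 gene, with a gap of 659 bases. Both rows were tested on their own in 10 pairs, and in all 10 the differences had the same sign. In 5 of the 10 one row was called and in none both. Of all 63 tested histone rows, 57 had a positive difference, 17 were called higher and 1 lower. Whether pairs depart from these shares was not tested.

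The levels of paired genes were often unequal. Hist1h2ag averaged 22.2 FPKM in LPS and 7.70 FPKM in WAT and was called, while its partner Hist1h2bj, 269 bases away, averaged 47.1 FPKM in LPS and 31.2 FPKM in WAT and was not (log2 difference 0.62, limma adjusted p = 0.264). Hist1h2an averaged 8.10 FPKM in LPS and 7.06 FPKM in WAT, against its partner Hist1h2bp with 7.68 FPKM in LPS and 1.15 FPKM in WAT. On chromosome 3, Hist2h2ac averaged 46.4 FPKM in LPS and 48.1 FPKM in WAT, while its partner Hist2h2be, which fell, started only 238 bases away. Differences between partners were not tested.

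Rows were also grouped by their 3′ end and by shared sequence. The 18 rows that extend over 100 bases past the stem-loop in the table had a median log2 difference of 0.91, and the 23 that end earlier 0.89. Among the 18 is Hist1h4b, whose row overlaps another gene and whose annotated transcript ends 28 bases past the loop. The 33 single rows with at most 50% of their runs shared with any other annotated gene had a median of 0.80, and the 29 with more had 0.97. These are descriptions of rows that passed the filter.

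The 6 rows that were not tested were low. Hist1h2aa was listed at 0 in every library and Hist1h2ba, the testis-specific H2B, reached at most 0.331 FPKM in LPS and was listed at 0 in WAT. Hist1h2aj, Hist1h2bq and Hist1h2br stayed at or below 0.955 FPKM in LPS and 0.490 FPKM in WAT. In the last 2, every run of 50 bases of the shortest coding transcript is shared with other genes. Hist2h3b, whose row overlaps that of Hist2h2bb, had at most 1e-05 FPKM in LPS and 0.768 FPKM in WAT.

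Genes around the histones were followed through 7 lists of 82 genes, of which 72 were tested. Of the 35 tested genes that regulate, process, degrade or chaperone histones and their messages, 9 were higher in LPS by limma, as were 5 of 11 histone variants and 12 of 26 S phase and mitosis genes. That made 26 of 72 higher and none lower, beside 18.9% higher and 27.0% lower over all rows. At an unadjusted p below 0.05, 34 were higher and 2 lower, and the exact permutation test called 1 lower. The count of 26 was 15 without WAT 3 and 10 without WAT 4. Of 9 transcription factors and regulators, 4 were higher, and the median log2 difference was 0.50. Npat, the coactivator that switches histone genes on at the start of S phase, had 7.56 ± 0.766 FPKM in LPS and 4.65 ± 0.137 FPKM in WAT (SD, n = 8 and n = 4). The groups did not overlap, at 6.35 to 8.38 FPKM in LPS and 4.52 to 4.84 FPKM in WAT, and the log2 difference was 0.59 ± 0.10 (limma adjusted p = 0.000438). LPS 7, the lowest tumour here too, was above every WAT library. Nfya, a subunit of the CCAAT-binding factor NF-Y, had 25.1 ± 6.31 FPKM in LPS and 15.3 ± 3.79 FPKM in WAT (log2 difference 0.66 ± 0.20, limma adjusted p = 0.0160), lost without WAT 1 or WAT 4. Its partner subunit Nfyc had 12.7 ± 1.65 FPKM in LPS and 16.7 ± 5.45 FPKM in WAT and was not called (limma adjusted p = 0.134). Without WAT 4, 1 of the 9 was higher.

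Of 8 genes of histone pre-mRNA processing, 1 was higher. This was Slbp, with 31.4 ± 5.71 FPKM in LPS (SD, n = 8; 22.2 to 38.6 FPKM), against 22.1, 25.3, 21.2 and 20.1 FPKM in WAT. LPS 1 and LPS 7 lay inside the WAT range. It differed on the log2 scale by 0.47 ± 0.15 (limma adjusted p = 0.0207), lost without WAT 1, WAT 3 or WAT 4, with the replicate block and with the exact permutation test. Sympk, the scaffold of the cleavage complex, was not called, with 25.3 ± 3.78 FPKM in LPS and 25.3 ± 0.352 FPKM in WAT (limma adjusted p = 0.936). The count was 2 without LPS 7. None of the 6 decay genes was called (limma, with Upf1, the helicase that starts histone message decay, at 16.9 ± 2.70 FPKM in LPS and 20.4 ± 0.404 FPKM in WAT, adjusted p = 0.0873). At an unadjusted p below 0.05, 1 of the 6 was higher and 2 were lower. Leaving out LPS 5 or LPS 7 gave 1 higher decay gene, and leaving out LPS 3, LPS 6 or WAT 4 gave 1 lower one.

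Of 12 chaperones and assembly factors, 4 were higher, and the median log2 difference was 0.21. Chaf1a, the large subunit of the assembly factor that follows the replication fork, had 5.03 ± 1.75 FPKM in LPS and 2.46 ± 0.758 FPKM in WAT (log2 difference 0.78 ± 0.24, limma adjusted p = 0.0176), lost without WAT 3 or WAT 4. Hat1, which acetylates new H4, had 16.9 ± 3.84 FPKM in LPS and 10.8 ± 0.969 FPKM in WAT (0.58 ± 0.16, limma adjusted p = 0.00797), with no overlap between the groups. Hjurp, the chaperone of the centromeric H3, was spread from 19.3 to 146 FPKM in LPS, against 36.7 to 53.0 FPKM in WAT, and was not called (limma adjusted p = 0.724). The count was 2 without WAT 2 and 1 without WAT 3 or without WAT 4.

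The list of replication-independent variants, most of which can replace histones outside S phase and come from polyadenylated messages, showed 5 of 11 higher and a median log2 difference of 0.70. H3f3b, a gene for H3.3, had 261 ± 54.5 FPKM in LPS and 93.6 ± 6.36 FPKM in WAT (SD, n = 8 and n = 4), with every tumour above every WAT library. Its log2 difference was 1.44 ± 0.17 (limma adjusted p = 1.36e-05), beside a median of 0.88 over the replication-dependent rows. H2afy2, a gene for a macroH2A, had 6.80 ± 1.66 FPKM in LPS and 2.28 ± 0.505 FPKM in WAT (1.23 ± 0.19, limma adjusted p = 0.000159), also without overlap. H1f0, the linker histone of resting cells, had 82.3 ± 40.0 FPKM in LPS and 45.3 ± 5.32 FPKM in WAT and was not called (limma adjusted p = 0.103), but was called without LPS 1 or LPS 7 and with array quality weights. The count was 8 without LPS 1.

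S phase and mitosis genes give the cell cycle beside the histones. Of 17 S phase genes, 4 were higher, and the median log2 difference was 0.66. Tyms, which makes thymidylate, had 20.4 ± 6.28 FPKM in LPS and 9.86 ± 2.21 FPKM in WAT (0.94 ± 0.22, limma adjusted p = 0.00396). Rrm1, a subunit of ribonucleotide reductase, had 21.9 ± 8.52 FPKM in LPS and 11.1 ± 1.78 FPKM in WAT (0.84 ± 0.27, limma adjusted p = 0.0216), lost without WAT 3 or WAT 4 and with the exact permutation test. Mcm6, part of the replicative helicase, had 25.1 ± 17.6 FPKM in LPS and 13.1 ± 2.75 FPKM in WAT and was not called (limma adjusted p = 0.223), except with the replicate block. The count was 7 without LPS 7 and 1 without WAT 3 or without WAT 4.

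Of 9 mitosis genes, 8 were higher and the median log2 difference was 1.25, but without WAT 4 the count was 3. Cdk1, the kinase that drives entry into mitosis, had 49.7 ± 26.6 FPKM in LPS and 12.3 ± 5.58 FPKM in WAT (1.87 ± 0.43, limma adjusted p = 0.00339). Bub1, a checkpoint kinase, had 9.02 ± 5.27 FPKM in LPS and 2.06 ± 0.650 FPKM in WAT (1.54 ± 0.40, limma adjusted p = 0.00742). Kif11, a spindle motor, had 10.9 ± 5.16 FPKM in LPS and 4.56 ± 2.18 FPKM in WAT and was not called (limma adjusted p = 0.0527), but was called in 6 of 20 alternatives: both other scalings, array quality weights, the replicate block, and without LPS 1 or LPS 7.

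Library by library, the cycle genes followed the histones in part. The S phase sum was 204, 413, 233, 225, 427, 225, 123 and 222 FPKM in LPS 1 to LPS 8, against 171, 183, 129 and 117 FPKM in WAT 1 to WAT 4. The mitosis sum was 95.1, 274, 152, 183, 276, 137, 53.1 and 244 FPKM in LPS 1 to LPS 8, against 80.4, 74.9, 51.8 and 25.7 FPKM in WAT 1 to WAT 4. LPS 5 and LPS 2 were the highest tumours in both sums, LPS 7 was the lowest tumour in these and in the histone sum, and WAT 4 was the lowest WAT library in all 3. LPS 8 was among the 3 highest tumours for histones and mitosis genes, but only above LPS 1 and LPS 7 for S phase genes. The part of the number of dividing cells in the histone values was not tested.

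**Figure D5:**
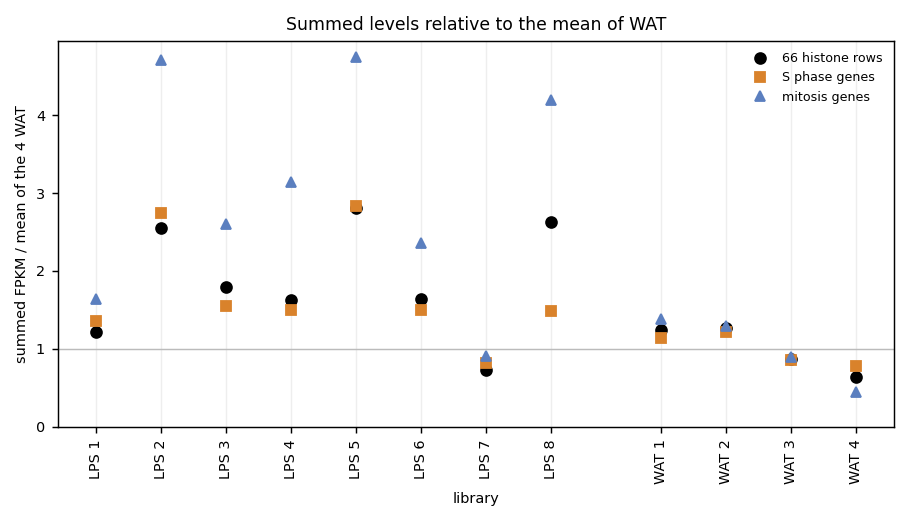
Summed FPKM of 66 histone rows, 17 S phase genes and 9 mitosis genes in each library, each divided by its mean over the 4 WAT libraries (y axis, linear from 0; the grey line marks 1), with LPS left and WAT right. LPS 2 and LPS 5 are high and LPS 7 lowest among tumours in all 3 sums, while LPS 8 is high for histones and mitosis genes only.

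The ages of the tumour animals allow a look at age within LPS. A slope in log2(FPKM + 1) per month was fitted with limma over 13280 rows, 62 of them histone rows. None of the 62 was called, nor was any row of the table (0.0%), and none was under any alternative. At an unadjusted p below 0.05 there were 2 of 62, Hist1h2bm (-0.42 ± 0.17 per month) and Hist1h2bl (0.73 ± 0.31 per month), both named after their values were seen, where 1.72% of all rows passed. The slope was negative for 60 of the 62, with a median of -0.23 per month, and for 61.0% of all rows, with a median of -0.02. All 62 slopes come from the same 8 libraries and are not separate observations.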

How the data were processed

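Total RNA of 8 LPS and 4 WAT samples was sequenced after ribosomal RNA depletion, and the labels call the libraries biological replicates. The FPKM values were deposited by the authors, 1 per row and library. GRCm38 is the build, and Cuffdiff 2.2.1, Cufflinks 2.2.1, TopHat2 2.1.0, Bowtie2 and Trimmomatic are the tools, named in the labels (per the submitters' processing notes). Their roles, the handling of fragments that map to several copies, and any scaling between libraries are not given in the sources used here. Most histone messages are short, so their FPKM also depend on how fragment length was treated.

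Histone rows were found by symbol, and the table's starts were counted from 1. Differences were fitted with limma 3.58.1 in R 4.3.3 (trend and robust empirical Bayes, two-sided) on log2(FPKM + 1), over the 14821 rows that reached 1 FPKM in 4 or more of 12 libraries. Benjamini-Hochberg adjustment ran over all rows tested, at 0.05. Because of the pseudocount, changes of low genes are understated. The age slope used the 8 LPS libraries. The fit was tested on simulated data. Sums and medians carry no test. Tables were made with Python and pandas.

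No counts were recovered, so no counting interval is given. The value of about 1 fragment, from the low values of 2154 long genes, put the deepest library (WAT 1) at 2.60 times the depth of the shallowest (LPS 1). FPKM sums ran from 771665 to 996090.

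Stem-loops were searched in GENCODE M21 transcripts and motifs in RefSeq promoters (GRCm38.p6). Members and gene lists were chosen with earlier results of these data known. Named were the members called, the most abundant of each type, the only member of a cluster, the joined rows, and from each list up to 2 called each way and the most abundant not called, with Slbp and Npat. Listed genes in joined rows, and Cdt1 and Gins2, were not analysed here. Alternatives were another pseudocount, filters, scalings, array quality weights, a replicate block, an exact permutation test per row over 495 splits, and each library left out.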

Additional observations from a re-analysis of the deposited data

Results flagged for a closer look

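Among 54 groups of library values examined for the members named and the sums by type, 2 held a library far from the others of its group by Dixon's criterion, where chance flags about 1 group in 20 (2.7 of 54). Both were LPS 8: Hist1h2al at 409.5 FPKM, with LPS 7 next at 178 FPKM, and Hist4h4 at 27.8 FPKM, with LPS 5 next at 15.2 FPKM. Without LPS 8 the log2 difference of Hist1h2al was 5.70 and remained called.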

How the results depend on the processing

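Of 17 histone rows called higher, array quality weights gave 28, the exact permutation test 8 and the replicate block 19. Replicate numbers 5 to 8 exist in LPS only, so the replicate block takes its difference from LPS 1 to LPS 4 against WAT 1 to WAT 4. Leaving out each library gave 5 to 39 called higher and 1 to 2 called lower. Of 26 listed genes called higher, leaving out each library gave 10 to 34, and of 0 called lower 0 to 1, while array quality weights gave 2 lower and the permutation test 1. The other pseudocount, filters and scalings kept these counts within 1.5 times, and the age slope gave 0 calls under each. Replicate numbers did not pair the samples (correlations of deviations -0.02, 0.02, 0.09 and 0.03 over 14821 rows), and with the replicate block the calls of Hist1h2ab, Hist1h2ag, Hist1h2ah, Hist1h2ao, Hist1h3c, Hist2h2bb and Slbp were lost. Of 39 single genes followed, 2 changed sign, neither called: Sympk (0.0551 with median-ratio scaling, 0.0564 with quantile normalization, 0.0319 with array quality weights, 0.11 with the replicate block, and -0.0568 to 0.0569 with each library left out, above 0 without LPS 5) and Hjurp (-0.00932 to 0.399 with each library left out, below 0 without LPS 2). The permutation test can give no p below 0.00202. The exact permutation test also lost the calls of Hist1h1e, Hist1h2ab, Hist1h2ag, Hist1h2ah, Hist1h2ao, Hist1h3c, Hist1h3h, Hist1h4f and Hist2h2bb, and no filter those of Hist1h2ab, Hist1h2ah, Hist1h2ao, Hist1h4f and Hist2h2bb; Hist1h4f was also lost with the filter on the mean. Where a call was lost the cause was not tested. Short, shared transcripts and an unknown number of fragments limit single rows.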

Other observations

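Hist1h2al lies far from the other Hist1 rows, and its neighbours within 400 kb on chromosome 13 were looked up after its values were seen. S1pr3, a receptor for sphingosine-1-phosphate, had 166 ± 77.7 FPKM in LPS and 6.11 ± 0.304 FPKM in WAT (SD, n = 8 and n = 4; log2 difference 4.39 ± 0.36, limma adjusted p = 5.13e-07). Shc3, a signalling adaptor, had 7.53 ± 3.25 FPKM in LPS and 0.157 ± 0.0619 FPKM in WAT (2.74 ± 0.38, limma adjusted p = 5.52e-05). It passed the filter through LPS alone, with at most 0.240 FPKM in WAT and at least 1.18 FPKM in LPS. The difference and lack of overlap of Shc3 thus follow in part from the filter. Spin1, a reader of histone methylation, had 31.9 ± 5.57 FPKM in LPS and 14.2 ± 0.325 FPKM in WAT (1.09 ± 0.15, limma adjusted p = 5.95e-05). In all 3 the groups did not overlap. Of all rows tested, 18.9% were called higher, and 11.8% had all LPS libraries above all WAT libraries. Nxnl2 stayed at or below 0.155 FPKM in LPS and 0.0862 FPKM in WAT, and Gm22199 was listed at 0 in every library. The tumour with most Hist1h2al, LPS 8, had 163 FPKM of S1pr3, against 287 FPKM in LPS 3, the highest for S1pr3.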
